A study of Mus musculus with 11 samples.

Results

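The genes described here are 33 transcripts that astrocytes make in larger amounts when they become reactive. They were taken by gene symbol from a fixed list, which holds 29 genes of the published pan-reactive, A1 and A2 astrocyte panels together with Nes, C4b, Stat3 and Socs3. The pan-reactive genes are those induced by both systemic inflammation and stroke, the A1 genes mainly by inflammation and the A2 genes mainly by stroke. All 33 were found, on 1 row each, among the 30681 genes of the table. RNA sequencing of polyadenylated RNA was done on the hippocampus of mice aged 6 months. One group carried a conditional knockout (cKO) of Dclk3, a kinase of the doublecortin-like family (6 libraries), and the other was its wild-type (WT) control (5 libraries). Each library came from 1 hippocampus, and the labels do not say that every library is a different animal, so the p-values describe the spread between these samples, which may be technical. Which cells carried the recombinase, and which exons it removed, is not given in the sources used here, nor is the strain. No treatment is named for either group.

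Total counts ran from 24001828 to 35674490 and did not differ between the groups beyond their spread (2-sided exact permutation p = 0.851). Dclk3 itself had 15.4 to 25.7 CPM (counts scaled to library size) in cKO and 19.6 to 28.1 CPM in WT, a log2 fold change of -0.15 ± 0.12 (SE) with a Benjamini-Hochberg adjusted p of 0.727 in edgeR's quasi-likelihood test, which is the test used throughout. The group is therefore named by its label only. Xist and Y-linked transcripts read WT replicates 1, 3 and 4 as female and the other 8 libraries, all 6 cKO among them, as male, so values in the 8 male libraries are given beside the results. Only WT replicates 2 and 5 then stand for the wild type. Astrocyte RNA was read from 17 genes of resting astrocytes that are not members, such as Aqp4, Aldh1l1 and Slc1a2. Their summed level was 13228 to 15202 CPM in cKO and 12216 to 13751 CPM in WT, and none of them was at 0 throughout. This does not show which cells made the members' transcripts, since whole tissue was sequenced.

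Astrocytes are the glial cells that clear glutamate and potassium, feed neurons and wrap blood vessels with their endfeet. After injury, infection or degeneration they enlarge and switch on a shared programme: more intermediate filament protein, acute-phase proteins, cytokine receptors and adhesion molecules. Cytokines of the interleukin-6 family act on receptors that contain gp130, Janus kinases then phosphorylate the transcription factor STAT3, and STAT3 drives Gfap and its own inhibitor Socs3. Interferon and microglial signals add antigen-presentation and complement genes. In the hippocampus, Gfap is also made by resting astrocytes and by neural stem cells of the dentate gyrus, so its transcript is abundant without any injury.

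Promoters of 4 members are printed: Gfap, Serpina3n and Timp1 had some of the widest differences between libraries, and Socs3 is the feedback target of STAT3. Any relation of promoter letters to levels was not tested. Each is the 250 bases before the RefSeq start and the first 10 bases after it, in mouse build GRCm38.p6, read 5′ to 3′ on the gene's strand. Capitals mark a match to the STAT motif TTCNNNGAA. The windows are chr11:102897191-102897450 (minus strand) for Gfap, chr12:104406458-104406717 (plus) for Serpina3n, chrX:20869916-20870175 (plus) for Timp1 and chr11:117969357-117969616 (minus) for Socs3.
Gfap: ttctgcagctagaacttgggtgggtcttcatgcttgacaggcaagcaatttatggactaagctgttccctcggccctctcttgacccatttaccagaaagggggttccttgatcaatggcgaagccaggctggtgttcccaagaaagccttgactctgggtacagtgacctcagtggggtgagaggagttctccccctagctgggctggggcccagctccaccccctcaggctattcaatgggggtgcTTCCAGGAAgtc
Serpina3n: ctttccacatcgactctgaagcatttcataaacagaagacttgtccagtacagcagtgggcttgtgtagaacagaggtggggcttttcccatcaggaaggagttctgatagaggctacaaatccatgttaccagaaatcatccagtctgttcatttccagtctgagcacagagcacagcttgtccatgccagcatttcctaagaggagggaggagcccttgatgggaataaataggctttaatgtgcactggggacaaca
Timp1: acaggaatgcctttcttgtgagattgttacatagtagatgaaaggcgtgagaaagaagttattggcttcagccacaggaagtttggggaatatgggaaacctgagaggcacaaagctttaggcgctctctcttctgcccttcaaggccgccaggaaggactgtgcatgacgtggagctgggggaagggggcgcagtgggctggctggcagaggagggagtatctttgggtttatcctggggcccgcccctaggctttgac
Socs3: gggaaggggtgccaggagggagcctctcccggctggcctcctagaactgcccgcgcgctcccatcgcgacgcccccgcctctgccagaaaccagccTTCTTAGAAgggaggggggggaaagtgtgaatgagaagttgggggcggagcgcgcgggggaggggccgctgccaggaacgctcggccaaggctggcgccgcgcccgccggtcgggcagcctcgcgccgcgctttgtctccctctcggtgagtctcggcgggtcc

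The Gfap match TTCCAGGAA spans the start site, with its first base at position -2, and the Socs3 match TTCTTAGAA begins at position -154. Among the 27 members with a RefSeq window of 250 bases before to 50 after the start, 6 held the STAT motif on either strand (Emp1, Gfap, Socs3, Sphk1, Steap4 and Tgm1), against 9.55% of 27025 genes in the same table. The AP-1 motif TGANTCA was in 4 (Cp, Emp1, Osmr and Sphk1), against 8.97% of genes, and in Emp1 a match to each motif overlapped the other. The windows of Serpina3n and Timp1 held neither motif. A match is a description of these letters and not a bound site.

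Among the filament genes, Gfap and Vim ranged in cKO from the WT level to well above it, and Nes was above the WT range in cKO replicates 1 and 6. Per kilobase of exon, Gfap was the most abundant member (mean of 294 CPM per kb over all libraries), followed by Serpina3n (41.4) and S100a10 (20.9). Gfap (ENSMUSG00000020932, chr11:102887336-102900912, minus strand, GRCm38), the main intermediate filament protein of astrocytes, had 1283, 680.4, 690.4, 694 and 649 CPM in WT replicates 1 to 5. In cKO the lowest value was 667 (replicate 1), the median 1249 and the highest 3362 CPM (replicate 6), with 2354 in replicate 2 and 1529 in replicate 4. Thus 3 cKO libraries lay above every WT library, while the other 3 overlapped the WT range, in which replicate 1 stood apart. The mean was 1608 ± 1060 CPM in cKO (SD, n = 6) and 799 ± 271 CPM in WT (SD, n = 5). This 2.01-fold difference (log2 1.01 ± 0.46 SE, 95% interval -0.04 to 2.05) had an edgeR adjusted p of 0.55. The log2 difference was 0.65 without cKO replicate 6, 1.24 without WT replicate 1 and 1.28 in the 8 male libraries. In bulk tissue, more or fewer cells of a type and more or less RNA per cell cannot be told apart, here and below.

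Vim (chr2:13573927-13582826, plus strand), a filament protein that reactive astrocytes share with endothelial and ependymal cells, had 56.3, 41.3, 46, 52.7 and 40.8 CPM in WT replicates 1 to 5. The cKO libraries ran from 37.5 (replicate 1) through a median of 68.9 to 140 CPM (replicate 6), with 95.2 and 81.9 in replicates 2 and 4. The same 3 cKO libraries as for Gfap were above every WT library, and replicate 1 was below every one. On the log2 scale cKO differed from WT by 0.70 ± 0.32 (SE; edgeR adjusted p = 0.555), by 0.91 in the male libraries and by 0.44 without cKO replicate 6. Nes, the filament protein of neural stem cells and of some reactive astrocytes, was 14.6 to 24.7 CPM in cKO and 14.5 to 18 in WT, a log2 fold change of 0.12 ± 0.13 (SE). It was highest in cKO replicate 6, as Gfap was, and -0.0075 without that library, while cKO replicate 2, second for Gfap, had its lowest cKO value.

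**Figure D1:**
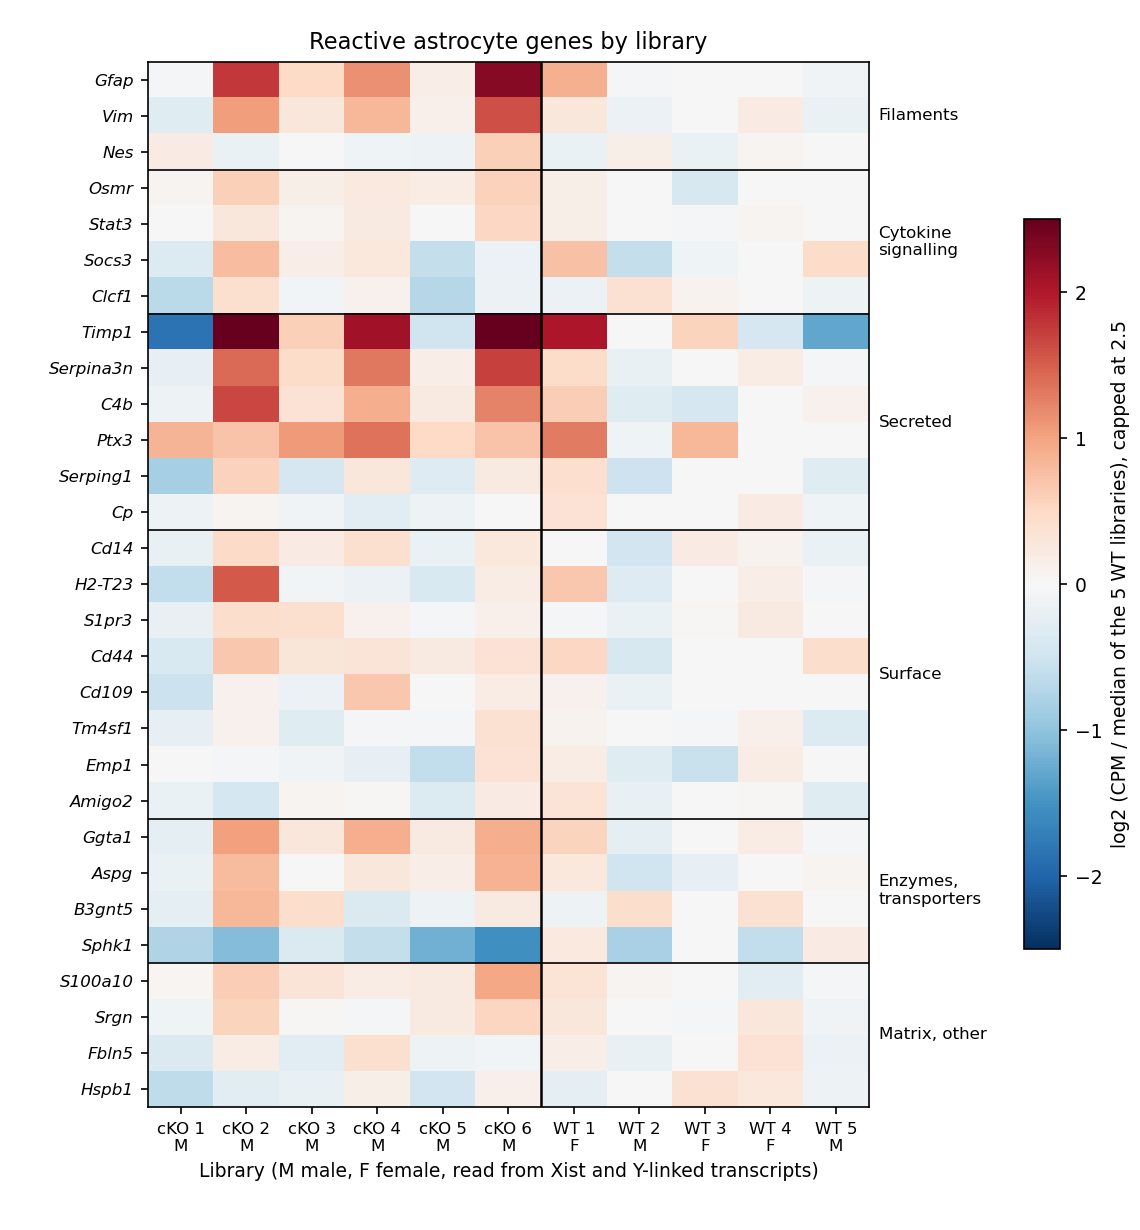
The 29 tested reactive astrocyte genes (rows, by role) in the 11 libraries (columns), coloured by the log2 ratio of the CPM to the median of the 5 WT libraries, capped at 2.5. cKO replicates 2, 4 and 6 hold most of the dark red cells, cKO replicate 1 many of the pale blue ones, and WT replicate 1 is red for Gfap, Timp1 and Ptx3.

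Secreted and acute-phase proteins had fold changes from -0.19 to 3.05 on the log2 scale, the widest range of the role groups. Serpina3n (chr12:104406729-104414329, plus strand), an acute-phase serine protease inhibitor, had 75.1, 48.2, 54.8, 62.5 and 52.8 CPM in WT. The cKO values ran from 47.6 (replicate 1) through a median of 106 to 178 CPM (replicate 6), with 147 in replicate 2 and 136 in replicate 4. Replicates 2, 3, 4 and 6 were above every WT library, although replicate 3 cleared WT replicate 1 by less than 1 CPM. The genotype difference was 0.88 ± 0.36 (log2 scale, SE; 95% interval 0.07 to 1.68; unadjusted p = 0.0358, edgeR adjusted p = 0.509), and 1.10 in the male libraries. Serpina3n belongs to a cluster of similar genes, and how reads that fit several of them were counted is not given. The other 7 Serpina3 genes of the table held 1288 counts over all libraries, against 29760 for Serpina3n.

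C4b (chr17:34728380-34743882, minus strand), complement component 4, had 77.6, 41.4, 38.3, 50.9 and 54.5 CPM in WT replicates 1 to 5. Its cKO values ran from 46.3 (replicate 1) through a median of 80.9 to 161 CPM (replicate 2), with 119.6 in replicate 6 and 96.1 in replicate 4. Again replicates 2, 4 and 6 were above all WT libraries and the rest overlapped them. C4b differed by 0.80 ± 0.35 (log2 scale, SE; 95% interval 0.01 to 1.59; unadjusted p = 0.0473, edgeR adjusted p = 0.536), and by 0.93 in the male libraries. C4a, a close copy, held 343 counts in all against 25781 for C4b, and reads common to both are uncertain.

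Timp1 (chrX:20870166-20874735, plus strand), an inhibitor of matrix metalloproteinases, differed most between libraries and least reliably. Its counts were 31, 7, 12, 6 and 3 in WT replicates 1 to 5, or 0.966, 0.238, 0.352, 0.179 and 0.0973 CPM. In cKO they ran from 0.066 (replicate 1) through a median of 0.689 to 15.3 CPM (replicate 6, 428 counts), with 1.83 in replicate 2 and 1.02 in replicate 4. A single library thus held most of the 546 cKO counts, and the order of the upper libraries (cKO replicates 6, 2 and 4, then WT replicate 1) was that of Gfap. The fitted difference was 3.05 ± 1.42 (log2 scale, SE; 95% interval -0.16 to 6.26; edgeR adjusted p = 0.555), and 0.96 without cKO replicate 6. Timp1 is X-linked, and the male libraries gave 4.18.

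The remaining secreted members differed less. Ptx3, a pattern-recognition pentraxin, was low, with 9 to 29 counts per library. All 6 cKO values, 0.461 to 0.844 CPM, were above WT replicates 2 and 5 (0.306 and 0.324), the wild-type males. They were also above WT replicate 4 (0.328), read as female, while WT replicates 1 and 3 (0.81 and 0.587) lay inside the cKO range. Its log2 fold change was 0.38 ± 0.28 in all libraries and 0.96 in the male ones (edgeR adjusted p = 0.715 and 0.854). For Serping1, the C1 inhibitor, the difference was 0.04 ± 0.25, or 0.41 in the male libraries. Cp, the copper-carrying ferroxidase ceruloplasmin, had 18.4, 14.4, 14.3, 16.7 and 13.4 CPM in WT and 11.9 (replicate 4), 13.4 and 15.2 (replicate 2) as lowest, median and highest in cKO. The difference of -0.19 ± 0.09 (log2 scale, SE; unadjusted p = 0.0467, edgeR adjusted p = 0.534) was -0.03 in the male libraries. Of the 6 tested secreted members, 5 had a positive and 1 a negative fold change, with a median of 0.59.

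**Figure D2:**
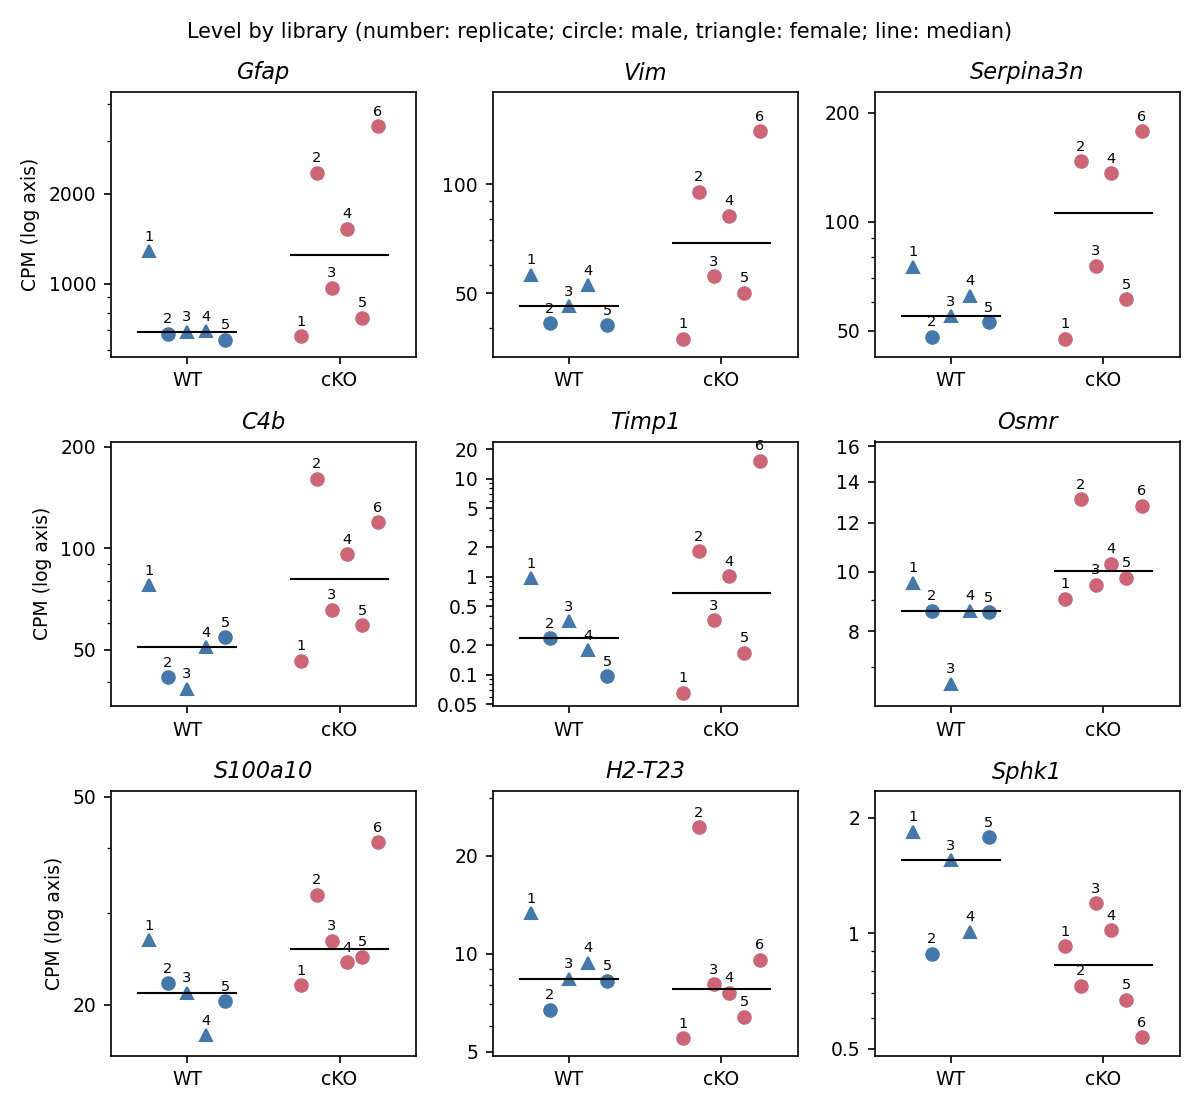
CPM of 9 members in each library on log axes, cKO in red and WT in blue, circles male and triangles female, with replicate numbers and a line at each group's median. For Gfap, Vim, Serpina3n, C4b and Timp1 the cKO points spread more widely than the WT points, and cKO replicates 2, 4 and 6 lie above all of these.

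Cytokine signalling genes differed little in size. Osmr (chr15:6813577-6874969, minus strand), the receptor subunit for oncostatin M that pairs with gp130, had 9.6, 8.64, 6.57, 8.64 and 8.6 CPM in WT. The cKO libraries had a lowest value of 9.04 (replicate 1), a median of 10 and a highest value of 13.1 CPM (replicate 2). Only WT replicate 1, at 9.6, reached into the cKO range, where it exceeded replicates 1 and 3. Of the tested members Osmr had the smallest p, with a difference of 0.36 ± 0.11 (log2 scale, SE; 95% interval 0.11 to 0.60; unadjusted p = 0.00639, edgeR adjusted p = 0.416). Its log2 fold change was 0.32 in the male libraries, where the groups did not overlap, as in 3.41% of all genes tested.

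Stat3 (chr11:100885098-100939540, minus strand) had 58, 52.1, 50.1, 54.7 and 51.9 CPM in WT, and 51.6 (replicate 5), 57.5 and 74.2 CPM (replicate 6) as lowest, median and highest in cKO. Replicates 2, 4 and 6 were above every WT library, as for Gfap, but by small amounts. Stat3 differed by 0.15 ± 0.08 (log2 scale, SE; edgeR adjusted p = 0.596), and by 0.08 without cKO replicate 6. Socs3, the inhibitor that STAT3 induces, did not share that order: it had 2.84, 1.12, 1.58, 1.7 and 2.34 CPM in WT and 1.13 (replicate 5), 1.73 and 2.9 (replicate 2) in cKO, and cKO replicate 6, with the most Gfap, had 1.54. Its difference was -0.06 ± 0.25, and 0.08 in the male libraries. Clcf1, a cytokine of the interleukin-6 family, had 0.997, 1.43, 1.17, 1.1 and 1.01 CPM in WT and ran from 0.671 (replicate 5) through 1.02 to 1.46 (replicate 2) in cKO. Its log2 fold change was -0.16 ± 0.21 (SE), and 8.17% of its exon bases lie also in another gene on the same strand.

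Among the receptors and other surface proteins, 6 of 8 fold changes were positive and 2 negative, with a median of 0.12, and none had an unadjusted p under 0.05. With limma-voom 4 of 8 were positive with a median of 0.02, and without cKO replicate 2 the median was 0.03. Cd44, the hyaluronan receptor, had 6.23, 3.33, 4.34, 4.38 and 5.97 CPM in WT, and 3.37 (replicate 1), 5.41 and 6.97 (replicate 2) in cKO. The groups overlapped almost wholly (log2 fold change 0.14 ± 0.18 SE). Cd14, the lipopolysaccharide co-receptor, reached 0.24 ± 0.15, and 0.50 in the male libraries (edgeR adjusted p = 0.645 and 0.854). H2-T23, a non-classical class I antigen-presenting molecule, was carried by a single library: cKO replicate 2 had 24.4 CPM, the next cKO library 9.6, and WT replicate 1 had 13.3. The genotype difference was 0.16 ± 0.40, and -0.31 without cKO replicate 2. Reads that other class I genes share with it make its count uncertain. Amigo2, an adhesion protein of neurons that A1 panels include, had 23.9, 16.5, 18.8, 19.2 and 15.3 CPM in WT and 13.8 (replicate 2), 18 and 21.7 (replicate 6) in cKO. Its difference was -0.09 ± 0.13, and 0.15 in the male libraries. S1pr3 (a sphingosine-1-phosphate receptor), Cd109, Tm4sf1 and Emp1 had differences between -0.0036 and 0.14.

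Among enzymes and transporters, Sphk1 had the lowest fold change of the tested members. Sphk1 (chr11:116530925-116536674, plus strand), the kinase that makes sphingosine-1-phosphate, had 1.84, 0.885, 1.55, 1.01 and 1.78 CPM in WT. The cKO libraries had 0.536 (replicate 6), 0.828 and 1.2 (replicate 3) as lowest, median and highest, from 15 to 40 counts each. Replicates 2, 5 and 6 were below every WT library, so cKO replicates 2 and 6, among the highest for Gfap, were among the lowest here. The difference was -0.73 ± 0.24 (log2 scale, SE; 95% interval -1.23 to -0.22; unadjusted p = 0.00754, edgeR adjusted p = 0.416) and -0.64 in the male libraries. Aspg, an asparaginase, had 4.74, 2.82, 3.43, 3.96 and 4.18 CPM in WT, and 3.53 (replicate 1), 4.64 and 7.21 (replicate 6) in cKO. Aspg differed by 0.42 ± 0.19 (log2 scale, SE; unadjusted p = 0.0387, edgeR adjusted p = 0.514), and by 0.55 in the male libraries. Ggta1, which adds terminal galactose to glycans, gave 0.47 ± 0.23 (edgeR adjusted p = 0.565), and B3gnt5, a glycolipid glycosyltransferase, 0.05 ± 0.23.

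In the last role group, S100a10, the annexin-2 partner that is the usual A2 marker, had 26.6, 22, 21.1, 17.5 and 20.3 CPM in WT. In cKO it ran from 21.8 (replicate 1) through a median of 25.6 to 41 CPM (replicate 6), with 32.5 in replicate 2. Only replicates 2 and 6 were above every WT library, and no cKO library was below the WT median. S100a10 differed by 0.40 ± 0.16 (log2 scale, SE; 95% interval 0.04 to 0.77; unadjusted p = 0.0318, edgeR adjusted p = 0.504), and by 0.43 in the male libraries. Hspb1, a small heat shock protein, had 0.686, 0.817, 1.06, 0.983 and 0.746 CPM in WT and 0.528 (replicate 1), 0.697 and 0.902 (replicate 4) in cKO, a difference of -0.25 ± 0.20. Fbln5, an elastic-fibre protein, had 4.83, 3.78, 4.28, 5.51 and 3.86 CPM in WT and 3.33 (replicate 1), 4 and 5.64 (replicate 4) in cKO, a difference of -0.07 ± 0.14 that was 0.15 in the male libraries. Srgn, a granule proteoglycan, gave 0.13 ± 0.13.

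The edgeR filter on low counts left out 4 members. Lcn2, the secreted lipocalin that rises steeply in reactive astrocytes, had 1.75, 0.272, 0.851, 0.119 and 0.195 CPM in WT replicates 1 to 5 (56, 8, 29, 4 and 6 counts). In cKO it ran from 0.0419 (replicate 5, 1 count) through a median of 0.22 to 0.956 CPM (replicate 2, 34 counts). WT replicate 1 thus had more Lcn2 than any cKO library. Steap4, a metalloreductase, held 1 to 22 counts per library, highest in WT replicate 1, and DESeq2, run without that filter, gave it a log2 fold change of -1.07 (unadjusted p = 0.0256, no adjusted p). Tgm1, a transglutaminase, held 0 to 18, with the upper values in cKO replicates 2 and 6 (18 and 15) and WT replicate 1 (12), and the 0 in cKO replicate 1 allows up to 3 counts. Slc10a6, a steroid sulfate transporter, held 2 counts in all cKO libraries together and 7 in all WT libraries.

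Of the 29 tested members, 21 had a positive and 8 a negative log2 fold change, with a median of 0.14, beside a median of -0.000079 and 8293 positive values among all 16587 genes tested. In the male libraries 24 of 29 were positive with a median of 0.25, and with limma-voom, which gives outlying libraries less weight, 18 of 29 with a median of 0.10. By edgeR's adjusted p no member passed, and neither did any of the 16587 genes (0%). At an unadjusted p under 0.05 there were 5 members on the higher side (Osmr, S100a10, Serpina3n, Aspg and C4b), against 3.84% of all genes (637), and 2 on the lower side (Sphk1 and Cp), against 5.35% (887). DESeq2 called 0.375% of the genes it tested (58 of 15469) and no member. Its unadjusted p was under 0.05 for 8 members on the higher side, against 2.79% of the 29986 genes to which it gave a p. On the lower side there were 2 (Sphk1 and Steap4), against 2.9%. Those 29986 include many genes that edgeR's filter on low counts left out, while most members passed it, so these shares are not a like background. In no member were all cKO libraries above all WT libraries, where 0.404% of genes were, or all below, where 0.512% were. Against the 2 male WT libraries alone, all cKO libraries were above in Osmr and Ptx3, and in 3.41% of genes.

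**Figure D3:**
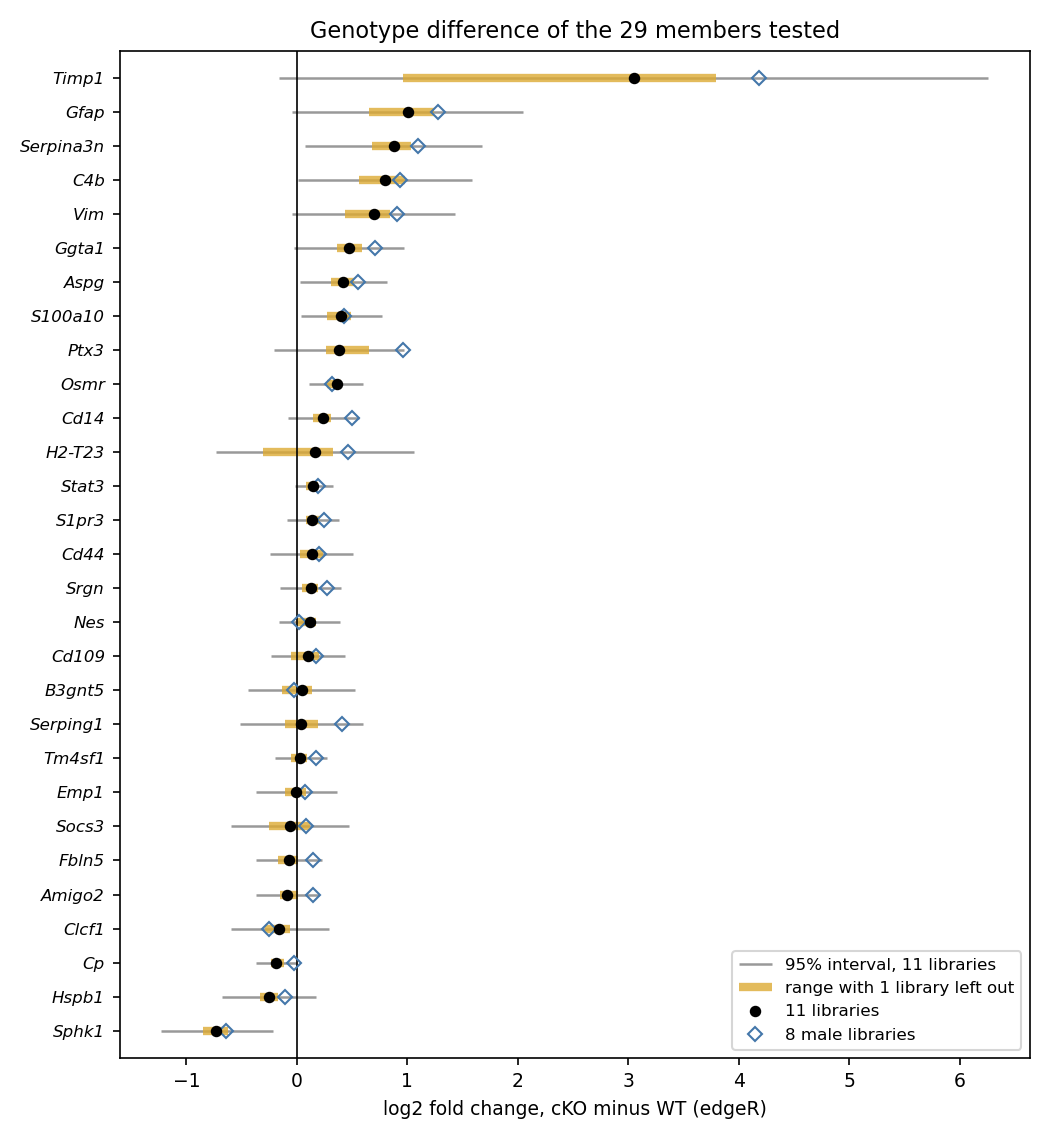
Log2 fold change (cKO minus WT) of the 29 tested members in all 11 libraries (black) with its 95% interval (grey) and the range with 1 library left out (yellow), and the value in the 8 male libraries (open diamonds). Timp1 has the widest interval, and the intervals of Osmr, S100a10, Serpina3n, Aspg and C4b lie above 0 and those of Sphk1 and Cp below it.

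The same libraries recurred at the top. For 11 of the 29 (Gfap, Vim, Serpina3n, Osmr, Timp1, Aspg, Ggta1, Cd109, Cd14, C4b and Stat3) the 3 highest of the 11 libraries were cKO replicates 2, 4 and 6, an arrangement chosen after the values were seen that 2.23% of all genes share. Relative to each member's own median, the median member was 0.43 higher (log2) in cKO replicate 2, 0.26 in replicate 6 and 0.19 in replicate 4. The same measure was 0.23 in WT replicate 1 and -0.24 in cKO replicate 1, which held the lowest value of 11 members. Counting members at least 1.5-fold above the WT median gives 15 in cKO replicate 2, 10 in replicate 6, 8 in replicate 4, 2 in replicate 3, 1 in replicate 1 and 0 in replicate 5, and 6 in WT replicate 1. The spread of libraries, as highest over lowest, was wider in cKO than in WT for 25 of the 29 members. The cKO group has 1 library more, which by itself widens such a range. The share of all genes was not counted for this spread or for the 1.5-fold limit, so neither count is read as a trait of the members. Gfap's ratio was 5.04 in cKO against 1.98 in WT.

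Levels of other cell types were read in the same libraries. The summed 17 genes of resting astrocytes lay above every WT library in 5 of 6 cKO libraries. cKO replicate 2 was highest (15202 CPM), and replicate 6, with the most Gfap, was the lowest of the cKO libraries (13228 CPM). Their median log2 fold change was 0.08, with 14 of 17 positive. Mlc1, a membrane protein of endfeet, gave 0.16 ± 0.05, Gja1, the gap junction protein connexin 43, 0.21 ± 0.06, and Slc1a2, the glutamate transporter GLT-1, 0.22 ± 0.07 (edgeR adjusted p = 0.352, 0.394 and 0.404), while DESeq2 called Mlc1 (adjusted p = 0.0487). The 14 microglial genes were summed at 791 to 1231 CPM in cKO and 782 to 862 CPM in WT, with all 14 fold changes positive and a median of 0.20. 7 of them had an unadjusted p under 0.05, against 3.84% of all genes on the higher side. None passed edgeR's adjusted threshold, where the smallest adjusted p of the list was 0.403. The microglial sum lay above every WT library in 5 of 6 cKO libraries and was highest in cKO replicate 2. Their median fold change was 0.13 without that library and 0.24 in the male libraries. P2ry12, the purinergic receptor of microglia, gave 0.19 ± 0.06, and Cx3cr1, their fractalkine receptor, 0.17 ± 0.06 (edgeR adjusted p = 0.406 and 0.436). The 10 leukocyte genes summed to 17.4 CPM in cKO replicate 2, 12.2 in WT replicate 1 and 11.5 in cKO replicate 6, with 4.77 to 7.2 in the other libraries. Only 2 of these 10 passed the filter on low counts, 1 higher and 1 lower, and the largest value of a single gene was 12.2 CPM. The part of these cell types in the members' values was not tested.

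Lists of other tissue parts showed other patterns. The 14 meningeal fibroblast genes, 12 of 14 lower with a median of -0.36 (-0.11 in the male libraries), summed to 133 to 218 CPM in cKO and 155 to 238 in WT. Slc13a4, Igf2 and Aldh1a2 had -0.76 ± 0.16, -0.56 ± 0.12 and -0.93 ± 0.21 (edgeR adjusted p = 0.26, 0.3 and 0.346). Of the 14, 6 were lower at an unadjusted p under 0.05, against 5.35% of all genes, and none passed edgeR's adjusted threshold. DESeq2 called 4, the 3 above and Slc6a13, named after its value was seen, against 0.375% of the genes it tested. In cKO replicates 2, 4 and 6 that sum was 154, 133 and 143 CPM, the lowest 3 of the 11 libraries, with 155 in WT replicate 2 next, and the part of this in the members' values was not tested. Endothelial genes were summed at 331 to 368 CPM in cKO and 317 to 389.9 in WT, neuronal genes at 13112 to 14415 and 12792 to 14019.6, and oligodendrocyte genes at 4695 to 6502 and 5018 to 6003. None of these lists had a marker at 0 in every library.

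**Figure D4:**
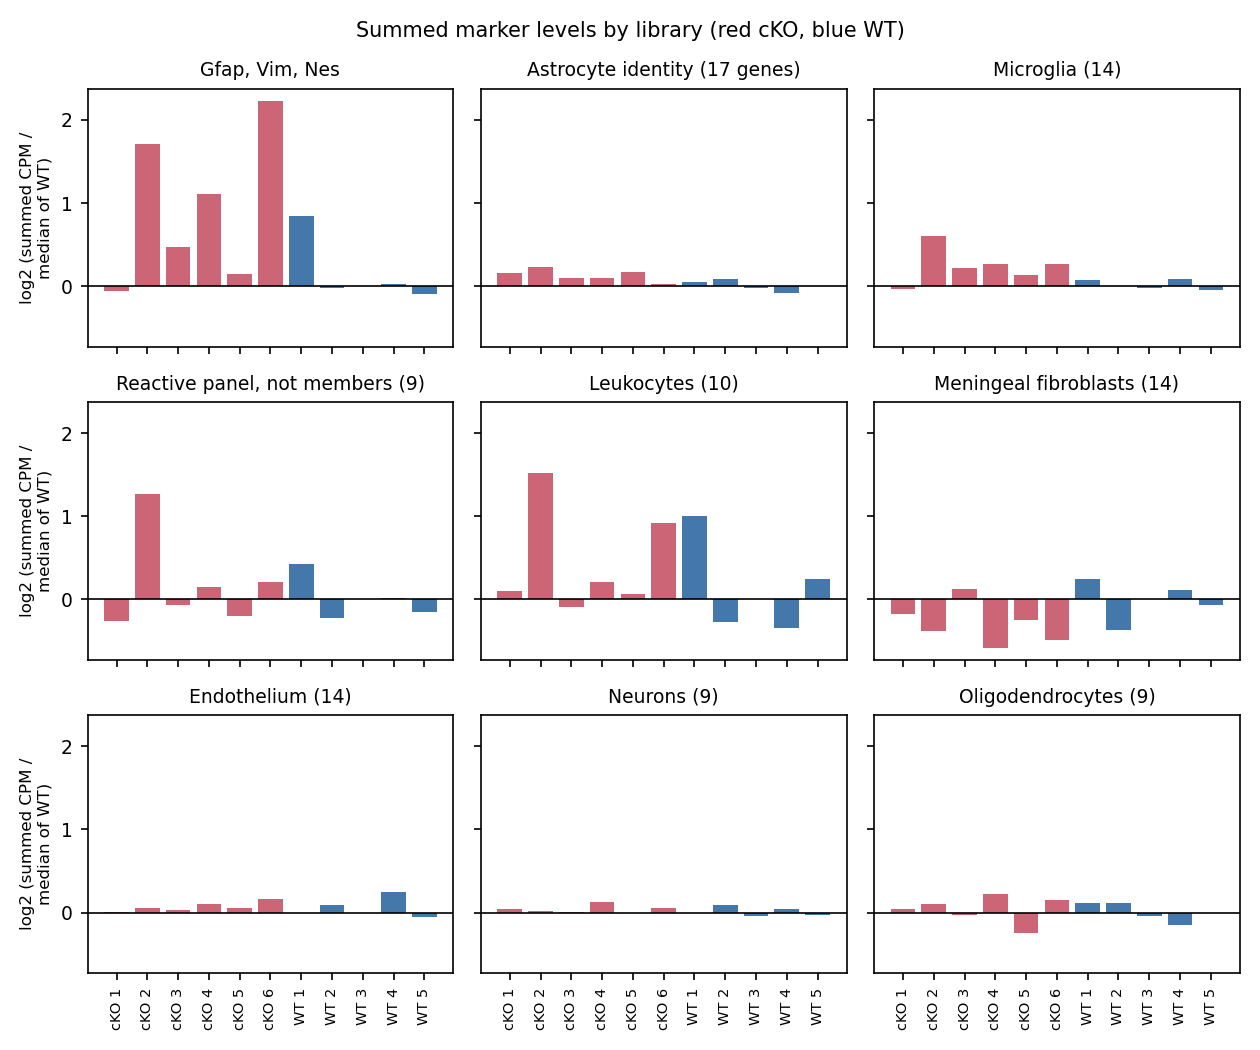
Summed CPM of gene lists in each library, as log2 of the ratio to the WT median, red for cKO and blue for WT. The filament genes reach above 2 in cKO replicate 6 while astrocyte identity genes stay near 0. For leukocyte genes cKO replicates 2 and 6 and WT replicate 1 stand out, and for the panel genes that are not members cKO replicate 2 and WT replicate 1.

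By published panel, and for the members only, the pan-reactive genes had a median log2 fold change of 0.39 (8 of 10 tested positive). The A1 members had 0.09 (4 of 6) and the A2 members 0.05 (6 of 9), so these medians do not stand for the whole panels. In the male libraries these were 0.44, 0.34 and 0.17, and with limma-voom 0.36, -0.05 and 0.03. Without cKO replicate 2 the A1 median was -0.06. The difference between panels was not tested. Panel genes outside the 33, most of them induced by interferon, showed a separate order. Of 8 tested, 7 were positive with a median of 0.26, and none had an unadjusted p under 0.05. The median was -0.35 without cKO replicate 2 and 0.65 without WT replicate 1. In the male libraries it was 0.75 with 8 of 8 positive, and with limma-voom -0.05 with 4 of 8 positive. H2-D1, a classical class I molecule, had 199.8 CPM in cKO replicate 2, 65.9 in WT replicate 1 and 33 to 57.9 elsewhere. Gbp2, an interferon-induced GTPase, had 36 and 24.5 CPM in those libraries, 12.2 in cKO replicate 6 and 3.7 to 7.95 elsewhere. C3, the central complement component, was 10.9 CPM in cKO replicate 2 and 0.528 to 3.49 in all others. The genes of this list named here were chosen after their values were seen. Replicates 4 and 6, which share the high Gfap with replicate 2, did not share the high H2-D1. For Gbp2, Cxcl10, Iigp1 and Psmb8, however, the 3 highest libraries were cKO replicates 2 and 6 and WT replicate 1. Cxcl10, the 1 negative gene (-0.40 ± 0.86), had 9.04 CPM in WT replicate 1, 6.44 in cKO replicate 2 and 3.61 in cKO replicate 6.

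In the pathway lists, counts were small in both directions. Of 26 tested genes of interleukin-6 family and JAK-STAT signalling, 15 were positive, with a median of 0.03. At an unadjusted p under 0.05, 1 gene was higher, against 3.84% of all genes, and 2 were lower, against 5.35%. Jak1, a kinase of that pathway, was higher by 0.11 ± 0.05. Tyk2, another such kinase and 1 of the 2 lower genes, was at -0.18 ± 0.07 (edgeR adjusted p = 0.501 and 0.476). Of 13 tested genes of other signals that induce reactive astrocytes, 8 were positive, with a median of 0.11. Nfkbia, the inhibitor of NF-kappaB, was -0.29 ± 0.07, Ednrb, the endothelin B receptor of astrocytes, 0.26 ± 0.07, and Notch1 -0.20 ± 0.06 (edgeR adjusted p = 0.3, 0.349 and 0.416), and DESeq2 called Nfkbia (adjusted p = 0.0294). No list gave a member that passed edgeR's adjusted threshold.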

How the data were processed

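The authors deposited 1 table of raw counts per Ensembl gene for 11 hippocampal libraries, 6 labelled cKO and 5 WT. Per the submitters' processing notes, bcl2fastq 2.17.1.14 and build mm10 were used. The library kit keeps strand, per the labels' protocols. The aligner, counter, annotation and use of strand in counting are not stated there or in the labels. All 16587 genes kept by edgeR's expression filter were fitted with edgeR's quasi-likelihood test (edgeR 4.0.16, limma 3.58.1, R 4.3.3), TMM scaling and Benjamini-Hochberg adjustment, at a threshold of 0.05, and members were read from that fit. CPM values are unlogged, on TMM-scaled totals. The common biological coefficient of variation was 9.56%, and the median SE of a log2 fold change was 0.0768. No 2 libraries of a group agreed within sampling noise (smallest chi-square per degree of freedom 5.59). The tests were tried on simulated data with the same variation for every gene and no outlying library. That does not show how they behave for members whose cKO libraries differ as widely as those of Gfap and Timp1. Positions are from GENCODE on GRCm38, and promoter letters from RefSeq on GRCm38.p6.

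The 33 members, their role groups and the other lists were chosen with earlier results of these data known. The rule for values by library took Gfap, Vim, Serpina3n, Osmr, Lcn2, Timp1, Cd44, C4b, Stat3, Socs3 and S100a10, and up to 6 members of smallest unadjusted p in each direction. Outside the members it took up to 3 genes of smallest p per list, and not all of them are named. The alternatives were 2 other scaling factors, 2 filters, the replicate block, DESeq2 1.42.0, limma-voom with quality weights, a sex term, the 8 male libraries and each library left out. Of the members, 7 share exon bases with another gene.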

Additional observations from a re-analysis of the deposited data

Results flagged for a closer look

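Of 58 sets of member values (29 members in each group) 3 had a library far from the others, by a gap larger than the test for a single outlying value allows. Chance flags about 1 in 20 groups. Gfap in WT replicate 1 was 1283 CPM, with 694 CPM as the next WT value. Timp1 in cKO replicate 6 was 15.3 CPM, with 1.83 CPM as the next cKO value. H2-T23 in cKO replicate 2 was 24.4 CPM, with 9.6 CPM as the next cKO value.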

How the results depend on the processing

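No member passed the adjusted threshold in any alternative run, and the smallest adjusted p of a member was 0.165. Over all genes, edgeR called 0 higher and 0 lower, against 29 and 29 by DESeq2, and 1 and 2 with no filter on low counts. Leaving out 1 library gave 0 to 1 higher (1 without WT replicate 1) and 0 to 14 lower (14 without WT replicate 5, 2 without WT replicate 2). Members whose groups do not overlap numbered 0 higher, 2 in the male libraries (Osmr and Ptx3, against 3.41% of all genes), and 0 to 1 with 1 library left out. The median of the members was 0.14, 0.08 to 0.20 with 1 library left out, and 0.10 with limma-voom. It was 0.25 with the sex term or in male libraries, which rest on the same genotype contrast because all females are WT. With the replicate block it was 0.04 (16 of 29 positive). The A1 and A2 medians were then -0.04 and -0.0062, and that of the surface proteins 0.0065. Only cKO has a replicate 6, so the block leaves that library out of the genotype difference. The numbers did not pair the samples (same-number correlations -0.316 to 0.213, and 1 of 5 cKO libraries matched its own number best), and the replicate block called no gene.

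Of 257 member values under the alternatives that leave out no single library, 235 kept their sign and 22 in 9 members did not; the cause was not tested. With the replicate block, in which cKO replicate 6 has no part in the genotype difference, Nes gave -0.0091 and Serping1 -0.05. Tm4sf1 gave -0.06, B3gnt5 -0.0062 and H2-T23 -0.03 in the same run. With limma-voom, Serping1 gave -0.06, Tm4sf1 -0.0049 and H2-T23 -0.05. With the sex term and in male libraries alike, Fbln5 and Amigo2 gave 0.15, Socs3 0.08, Emp1 0.07 and B3gnt5 -0.03. All female libraries are WT, so the sex term leaves the genotype difference to the male libraries. These 2 settings are not separate checks, although both are counted in the 257 values. Emp1, at -0.0036 in all libraries, gave 0.00067 with relative log expression scaling, 0.0049 with no filter, 0.00054 with the stricter filter and 0.0017 with DESeq2. Leaving out 1 library turned 10 members: Nes (-0.0075 to 0.17), Serping1 (-0.11 to 0.19), Fbln5 (-0.17 to 0.01), Amigo2 (-0.15 to 0.01), Cd109 (-0.05 to 0.20), Emp1 (-0.11 to 0.08), Tm4sf1 (-0.05 to 0.09), B3gnt5 (-0.13 to 0.14), H2-T23 (-0.31 to 0.33) and Socs3 (-0.25 to 0.12). The other 19 never turned. Genotype and sex are unevenly mixed, with only 2 wild-type males, and members under about 1 CPM rest on few reads.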
